A study of Mus musculus with 8 samples.

Results

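The transcripts of 10 core genes of TGF-beta signalling, namely the ligand *Tgfb1*, the receptors *Tgfbr1* and *Tgfbr2*, the SMADs *Smad2*, *Smad3*, *Smad4* and *Smad7*, and the repressors *Ski*, *Skil* and *Tgif1*, were followed in mouse CD8+ T cells with and without DADA. They were taken by gene symbol from a table of 22520 genes and assembled transcripts, and all 10 were found once and passed the filter on low values. The cells were splenic CD8+ T cells of wild-type mice, held for 6 days under anti-CD3, anti-CD28 and IL-2 to drive them toward exhaustion, a state of weakened function that follows lasting stimulation. From day 3 on, 4 cultures received 40 µM DADA (diisopropylamine dichloroacetate, an inhibitor of pyruvate dehydrogenase kinase) and 4 received an equal volume of the solvent DMSO, and total RNA of day 6 was sequenced. Both groups thus shared the stimulation, the cytokine and the harvest day. The series' design text calls the libraries biological replicates, but the mouse behind each is not named and the labels give no age, so the p-values measure the spread between these libraries. The paper's methods list male C57BL/6J mice with an age range, without tying them to these cultures. The labels and methods name no added TGF-beta, the medium held fetal bovine serum, and the values describe transcripts and not signalling itself. In such bulk samples, fewer cells of a type and less RNA per cell cannot be told apart.

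TGF-beta1 is secreted in a latent form, held inactive by its own propeptide, and must be released before it can bind. The free ligand joins the type II receptor TGFBR2 to the type I receptor TGFBR1, which phosphorylates SMAD2 and SMAD3, and these pair with SMAD4 and enter the nucleus. SMAD7 acts at the receptor as a feedback inhibitor, while SKI, SKIL (also called SnoN) and TGIF1 hold SMAD target genes down together with histone deacetylases. In CD8+ T cells the pathway is known for restraining cytotoxic genes and for supporting tissue residency.

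The authors deposited FPKM values, in which the fragments of a gene are divided by its length and by the library's mapped fragments. FPKM carries no read counts. From the steps between the lowest values, the depth was estimated at 13460000 to 16620000 mapped fragments per library with DMSO and 15220000 to 19200000 with DADA. At this depth *Smad7*, the lowest of the 10 genes, stood on an estimated 164 to 302 fragments per library, and *Tgfb1* on 1835 to 2900. Pearson correlations between libraries across genes were 0.9928 to 0.9949 within the groups and 0.9584 to 0.9613 between them. Markers of CD8+ T cells were high, the summed FPKM of the 6 genes *Cd3e*, *Cd3d*, *Cd3g*, *Cd8a*, *Cd8b1* and *Thy1* lying between 1053 and 1065 with DMSO and between 1185 and 1241 with DADA. The platelet markers *Pf4* and *Ppbp*, which mark a rich source of TGF-beta1, were listed at 0 in every library, as were *Pax5* and *Blk* of B cells and *Csf1r* and *Adgre1* of myeloid cells. The summed platelet list of 4 genes was 0.420 to 0.544 FPKM with DMSO and 0.394 to 0.560 with DADA. Of the 4 markers of CD4+ and regulatory T cells only *Zbtb7b* reached a mean of 1 FPKM, the sum being 16.3 to 17.4 FPKM with DMSO and 15.3 to 15.8 with DADA, and *Foxp3* was at 0.0426 to 0.103 and 0.187 to 0.268 FPKM. The sum of the 6 myeloid markers was 3.51 to 3.99 FPKM with DMSO and 5.15 to 5.72 with DADA, nearly all of it *Cd68*. The 6 B cell markers summed to 2.59 to 3.55 and 2.36 to 3.09 FPKM, the 4 erythroid markers to 0.0920 to 0.332 and 0.0726 to 0.155 FPKM, and the 3 NK cell markers to 0.0236 to 0.271 and 0.296 to 0.776 FPKM. The part of the myeloid, NK and regulatory markers in the results was not tested.

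With DADA, the ligand transcript *Tgfb1* fell to 0.716 of its level with DMSO, while the transcripts of the repressors *Skil* and *Ski* rose to 1.33 and 1.21 times theirs and that of *Smad4* to 1.10 times. The receptor transcripts *Tgfbr1* and *Tgfbr2* and those of *Smad3*, *Smad7* and *Tgif1* did not pass the test, and a fall of *Smad2* passed it only narrowly. The test was limma on log2(FPKM + 1), run over 10666 genes at 1 FPKM or more in at least 4 of the 8 libraries. A gene counts as called when its p-value, adjusted by Benjamini-Hochberg over all these genes, was below 0.05. Of the 10 genes, 5 were called, against 66.2% of all genes tested. The 3 called higher with DADA were *Skil*, *Ski* and *Smad4* (30.9% of all genes tested were called higher), and the 2 called lower were *Tgfb1* and *Smad2* (35.3%). The share of called genes among the 10 was thus no greater than among all genes. The groups did not overlap for 4 of the 10 genes (60.6% of all genes tested). The 4 DADA libraries lay entirely above the 4 DMSO libraries for 3 of the 10 genes (28.4% of all genes tested) and entirely below for 1 (32.2%). The median size of the log2 fold change was 0.13 over the 10 genes and 0.21 over all genes tested, and their median signed change was 0.04 against -0.02.

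**Figure D1:**
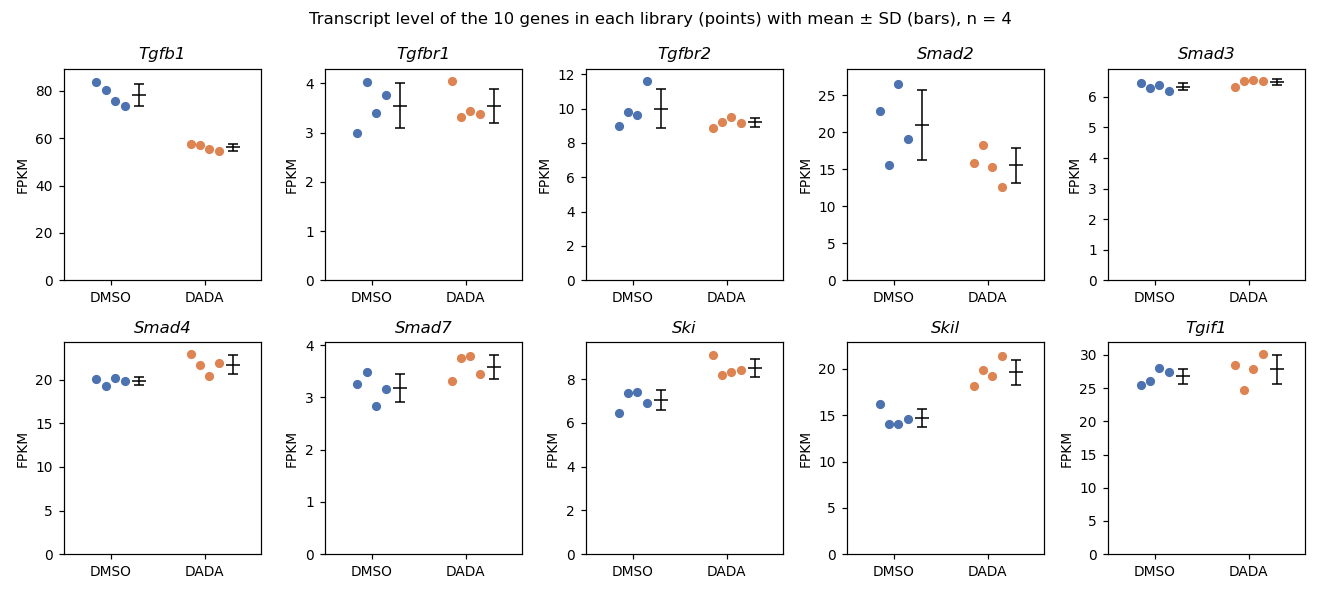
FPKM of each of the 10 genes (y axis, from 0) in the 4 DMSO and 4 DADA libraries, 1 point per library, with the mean and SD of each group as a bar beside the points (n = 4). *Tgfb1* lies lower and *Skil*, *Ski* and *Smad4* lie higher in every DADA library, whereas *Smad2* spreads from 15.5 to 26.6 FPKM with DMSO alone.

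*Tgfb1* (ENSMUSG00000002603), the ligand gene, was measured with DMSO at 83.7, 80.2, 75.9 and 73.5 FPKM. The values with DADA were 57.5, 57.0, 55.4 and 54.5 FPKM. The groups lay well apart, the highest DADA library staying below the lowest DMSO library. The mean went from 78.3 ± 4.56 to 56.1 ± 1.42 FPKM (SD, n = 4). On the log2 scale *Tgfb1* changed by -0.47 with a standard error of 0.0400 (limma, adjusted p = 3.17e-06), and 17.7% of all genes tested changed by more. It was the highest of the 10 transcripts in both groups.

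A promoter window of 250 bases before to 50 after the annotated start was found in RefSeq (GRCm38.p6) for 6 of the 10 genes, and not for *Skil*, *Smad2*, *Smad4* and *Smad7*. The windows of *Tgfb1*, the member that fell the most, and of *Ski*, which rose, are printed to show the sequence at the start of these genes, with capitals marking GGCGC or its reverse complement GCGCC, a GC-rich element that SMAD proteins can bind. Matches can overlap, and the letters are a description and not a binding site.
Tgfb1, chr7:25686752-25687051, plus strand: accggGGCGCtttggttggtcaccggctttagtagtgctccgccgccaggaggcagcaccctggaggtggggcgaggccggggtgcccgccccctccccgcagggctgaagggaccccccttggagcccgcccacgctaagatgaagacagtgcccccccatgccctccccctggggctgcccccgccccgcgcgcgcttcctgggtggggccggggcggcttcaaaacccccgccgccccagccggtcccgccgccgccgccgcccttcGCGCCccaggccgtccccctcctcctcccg
Ski, chr4:155222486-155222785, minus strand: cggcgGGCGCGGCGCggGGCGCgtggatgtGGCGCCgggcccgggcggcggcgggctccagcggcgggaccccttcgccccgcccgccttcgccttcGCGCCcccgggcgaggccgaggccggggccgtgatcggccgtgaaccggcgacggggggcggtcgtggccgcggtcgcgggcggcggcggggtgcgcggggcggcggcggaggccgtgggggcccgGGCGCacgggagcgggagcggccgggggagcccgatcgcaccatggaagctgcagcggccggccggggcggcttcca
The *Ski* window held 7 such matches and the *Tgfb1* window 2. Of all 32851 windows of the same length, 36.9% held at least 1, 23.3% at least 2 and 1.82% at least 7. Neither window held the SMAD-binding letters CAGAC (or GTCTG), which 49.6% of all windows hold, the palindrome GTCTAGAC (0.213%) or the TGIF core TGTCA (or TGACA, 45.4%). Among the windows not printed, some of *Tgfbr1*, *Tgfbr2* and *Tgif1* held CAGAC, some of *Tgfbr1* and *Tgif1* held TGTCA, and that of *Smad3* held neither.

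Of the receptor transcripts, that of *Tgfbr1* was low, while that of *Tgfbr2* ranked 6 among the 10 genes in both groups. *Tgfbr2* (ENSMUSG00000032440), the type II receptor that binds the ligand first, averaged 10.0 ± 1.13 FPKM (SD, n = 4) with DMSO, with 8.97 FPKM in the lowest and 11.6 FPKM in the highest library, and at 9.19 ± 0.279 FPKM with DADA, between 8.86 and 9.54 FPKM. The groups overlapped, and the log2 fold change of -0.11, with a 95% interval from -0.25 to 0.04, was not called (limma, adjusted p = 0.183). *Tgfbr1* (ENSMUSG00000007613), the kinase that phosphorylates SMAD2 and SMAD3, was at 2.99, 4.03, 3.40 and 3.77 FPKM with DMSO and at 4.04, 3.32, 3.43 and 3.38 FPKM with DADA. Its means were 3.55 and 3.54 FPKM, and the log2 fold change was 0.00 with an interval from -0.18 to 0.18 (limma, adjusted p = 0.996). Within a library, *Tgfbr2* was 2.84 ± 0.286 times as high as *Tgfbr1* with DMSO and 2.62 ± 0.285 times with DADA (SD, n = 4), and the ratios of the groups overlapped (two-sided exact permutation test, p = 0.400, adjusted p = 0.400 over 4 ratios).

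Of the SMADs that carry the signal, *Smad4* (ENSMUSG00000024515), the common partner, was at 20.03, 19.3, 20.3 and 19.8 FPKM with DMSO and at 22.9, 21.7, 20.4 and 21.9 FPKM with DADA. Every DADA library was above every DMSO library, by a narrow margin at DADA 3. It changed by 0.13 on the log2 scale, with a standard error of 0.0375 (limma, adjusted p = 0.0137), a small change that 67.9% of all genes tested exceeded. *Smad3* (ENSMUSG00000032402) was the steadiest of the 10, with a coefficient of variation of 1.86% with DMSO and 1.55% with DADA, and its means of 6.33 and 6.48 FPKM differed by a log2 fold change of 0.03 (interval -0.05 to 0.11, limma, adjusted p = 0.510). 

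*Smad2* (ENSMUSG00000024563), the other receptor-activated SMAD, was at 22.9, 15.5, 26.6 and 19.2 FPKM with DMSO and at 15.8, 18.4, 15.3 and 12.7 FPKM with DADA. The groups overlapped, DMSO 2 lying below DADA 1 and DADA 2 (two-sided exact permutation test, p = 0.0857). The log2 fold change of -0.40 had a wide interval, from -0.74 to -0.06, and passed the threshold narrowly (limma, adjusted p = 0.0399). This call was lost without any 1 of DMSO 1, DMSO 3, DMSO 4, DADA 1, DADA 3 or DADA 4, with log2 fold changes of -0.35, -0.28, -0.43, -0.41, -0.40 and -0.31. The coefficient of variation of *Smad2* between replicates was 22.6% with DMSO and 15% with DADA, where the medians over the 5880 genes averaging 10 FPKM or more in each group were 3.54% and 3.47%, and 0.748% and 1.65% of those genes varied more. At its lowest estimated fragment number, counting error alone would give about 2.30%, well below this spread. The ratio of *Smad3* to *Smad2* was 0.313 ± 0.0701 with DMSO and 0.424 ± 0.0678 with DADA (SD, n = 4), and did not pass the test (exact permutation test, p = 0.0857, adjusted p = 0.286 over 4 ratios).

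*Smad7* (ENSMUSG00000025880), the inhibitory SMAD that is itself a target of the pathway, was at 3.25, 3.49, 2.84 and 3.16 FPKM with DMSO and at 3.31, 3.76, 3.78 and 3.45 FPKM with DADA. DADA 2 and DADA 3 lay above all DMSO libraries, and DADA 1 and DADA 4 within their range. The log2 fold change was 0.13, with an interval from -0.01 to 0.27, and was not called (limma, adjusted p = 0.0910). Without DMSO 2 it was 0.16 and just called (adjusted p = 0.0487). The ratio of *Smad7* to *Smad3* was 0.503 ± 0.0453 with DMSO and 0.552 ± 0.0303 with DADA (exact permutation test, p = 0.143, adjusted p = 0.286).

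Both SKI-family corepressors rose with DADA. *Skil* (ENSMUSG00000027660) was at 16.2, 14.1, 14.1 and 14.6 FPKM with DMSO and at 18.1, 19.8, 19.2 and 21.4 FPKM with DADA. The lowest DADA library lay above the highest DMSO library, and the mean rose from 14.7 ± 0.989 to 19.6 ± 1.35 FPKM (SD, n = 4), a ratio of 1.33. This is 0.39 on the log2 scale with a standard error of 0.0567 (limma, adjusted p = 1.58e-04). *Ski* (ENSMUSG00000029050), whose promoter window is printed above, was at 6.44, 7.38, 7.41 and 6.91 FPKM with DMSO and at 9.08, 8.19, 8.33 and 8.39 FPKM with DADA, again with no overlap. It rose by 0.24 on the log2 scale with a standard error of 0.0515 (limma, adjusted p = 0.00201). The ratio of *Skil* to *Ski* was 2.11 ± 0.286 with DMSO and 2.32 ± 0.235 with DADA, with overlapping libraries (exact permutation test, p = 0.286, adjusted p = 0.381). *Tgif1* (ENSMUSG00000047407), a homeobox corepressor and the most abundant repressor transcript, had means of 26.8 ± 1.15 and 27.8 ± 2.22 FPKM with DMSO and DADA (SD, n = 4, log2 fold change 0.05, interval -0.07 to 0.17, limma, adjusted p = 0.444). For *Tgfb1*, *Smad4*, *Ski* and *Skil*, the genes whose groups did not overlap, the two-sided exact permutation test gave p = 0.0286, the smallest that 4 against 4 libraries allow.

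**Figure D2:**
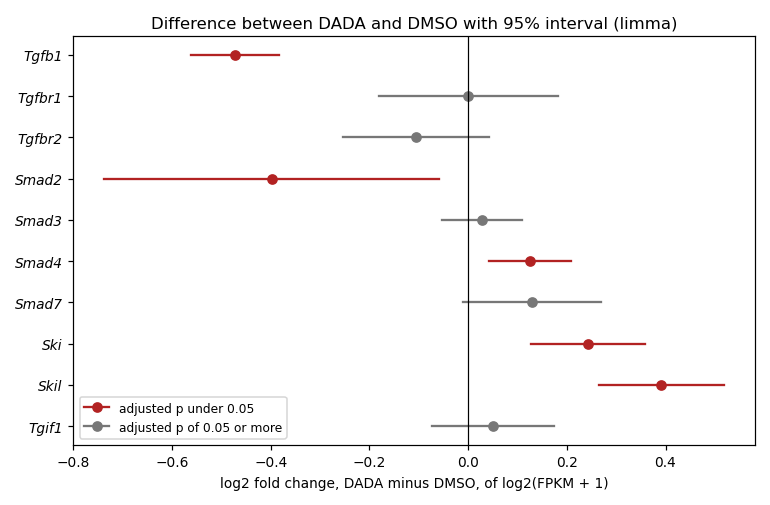
log2 fold change of each of the 10 genes (x axis, DADA minus DMSO on the log2(FPKM + 1) scale) with its 95% interval from limma, n = 4 per group, red where the adjusted p-value was under 0.05. The intervals of *Tgfb1* and *Smad2* lie entirely below 0 and those of *Ski*, *Skil* and *Smad4* above it. That of *Smad2* is the widest and ends close to 0.

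Since FPKM is scaled to length, levels can be set side by side between genes. With DMSO the order of mean FPKM was *Tgfb1*, *Tgif1*, *Smad2*, *Smad4*, *Skil*, *Tgfbr2*, *Ski*, *Smad3*, *Tgfbr1* and *Smad7*. The ranges of *Tgif1* and *Smad2*, of *Smad2* and *Smad4*, of *Ski* and *Smad3*, and of *Tgfbr1* and *Smad7* overlapped, so these neighbours were not told apart. With DADA *Smad2* stood behind *Smad4* and *Skil*, *Smad7* stood level with *Tgfbr1*, and the ranges of *Smad4* and *Skil*, of *Skil* and *Smad2*, of *Tgfbr2* and *Ski*, and of *Smad7* and *Tgfbr1* overlapped. Of the summed FPKM of the 3 repressors, *Tgif1* made up 55.1% ± 1.58 with DMSO and 49.7% ± 1.86 with DADA, *Skil* 30.4% ± 2.23 and 35.1% ± 2.07, and *Ski* 14.5% ± 0.940 and 15.2% ± 0.961 (SD, n = 4). Of the 4 SMADs, *Smad2* made up 41.3% ± 5.36 and 32.7% ± 3.31, *Smad4* 39.6% ± 3.13 and 46.0% ± 2.80, *Smad3* 12.6% ± 1.14 and 13.7% ± 0.843, and *Smad7* 6.40% ± 1.14 and 7.56% ± 0.576. The shares were also weighted by the length of each gene's longest coding transcript, a stand-in for fragments. The order of the repressors then turned, *Skil* making up 53.8% and 58.2%, *Tgif1* 25.0% and 21.0% and *Ski* 21.2% and 20.7% with DMSO and DADA. In the same way *Smad2* made up 59.5% and 50.6% and *Smad4* 24.0% and 29.8%. The coding transcripts of *Skil* span 716 to 6717 bases and those of *Tgif1* 613 to 1714, so the weighted shares rest on the choice of the longest. All these shares are descriptions with no test.

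**Figure D3:**
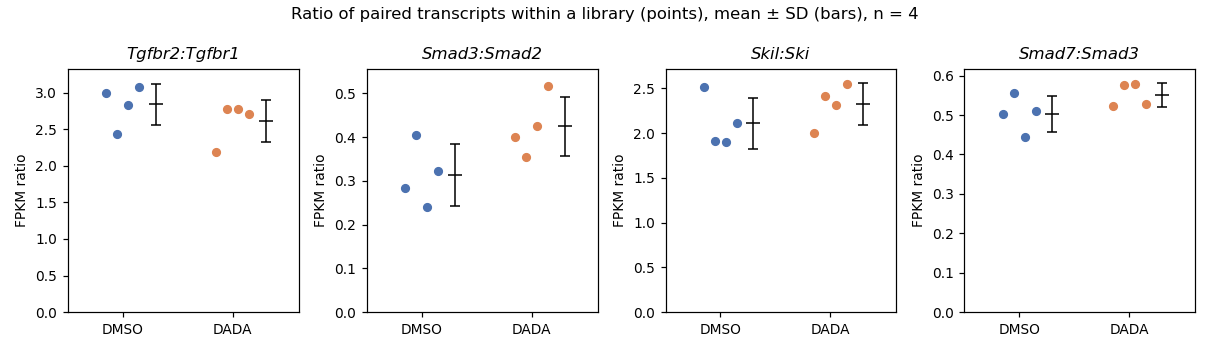
Ratio of FPKM between paired genes within each library (y axis, no unit, from 0), 1 point per library, with mean and SD beside them (n = 4). The DMSO and DADA libraries overlap in all 4 ratios, which range from 0.240 to 0.516 for *Smad3* to *Smad2* and from 1.90 to 2.55 for *Skil* to *Ski*.

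The rest of the pathway was read from 8 lists with 113 genes, of which 82 passed the filter, 41 were higher with DADA, 24 lower and 17 not called. Over all genes tested, 30.9% were called higher and 35.3% lower. Of the 82 genes, 4, namely *Tgfb3*, *Ltbp3*, *Acvrl1* and *Il2*, reached 1 FPKM in DADA libraries only and so had to differ. Without them, a count added after the data were seen, 37 of 78 genes (47.4%) were higher and 24 (30.8%) lower, with a median log2 fold change of 0.09. All genes tested, with such genes left out in the same way, gave 29.8% higher, 35.7% lower and a median of -0.02. The 78 genes still hold *Acvr1*, *Bmpr2*, *Gzma* and *Klf2*, which reached 1 FPKM in only some DMSO libraries and passed through the DADA libraries. In the same way *Inhba*, which fell, passed through the DMSO libraries. The lists were described by these counts, and no list was tested against other genes.

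Some genes of ligands and their activation changed by more than any of the 10 core genes. Of the 20 genes of this list, 8 passed the filter. Leaving out *Tgfb3* and *Ltbp3*, which passed through the DADA libraries, 3 of 6 were higher and 2 lower, and the median log2 fold change was 0.31. With them, 5 of 8 were higher and the median was 0.68. Over all genes tested, 30.9% were called higher and 35.3% lower. Without genes at 1 FPKM in a single group only, these shares were 29.8% and 35.7%. *Tgfb3*, a further isoform of the ligand, was at 0.232, 0.220, 0.405 and 0.228 FPKM with DMSO and at 3.41, 3.62, 3.39 and 3.10 FPKM with DADA (log2 fold change 1.79, limma, adjusted p = 1.11e-08). It passed the filter through the DADA libraries, where it still stayed far below *Tgfb1*, and a pseudocount of 0.1 in place of 1 gave a log2 fold change of 3.25. *Lrrc32*, which encodes GARP, a surface protein that holds latent TGF-beta, rose from 3.17 ± 0.444 to 10.4 ± 0.310 FPKM (SD, n = 4), or by 1.45 on the log2 scale (limma, adjusted p = 5.27e-08). *Furin*, the protease that cleaves the TGF-beta precursor, rose from 20.3 ± 1.08 to 53.4 ± 1.81 FPKM (log2 fold change 1.36, limma, adjusted p = 1.62e-09), and was chosen after its values were seen. *Inhba*, the activin A subunit, and *Itgav*, the integrin alpha V chain that takes part in releasing the latent ligand, were the 2 that fell, by 0.58 and 0.37 on the log2 scale, and with a pseudocount of 0.1 the change of *Inhba* was -0.89. *Itgb8*, a partner of that chain in ligand release that was also chosen after its values were seen, was at most 0.0168 FPKM in any library.

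**Figure D4:**
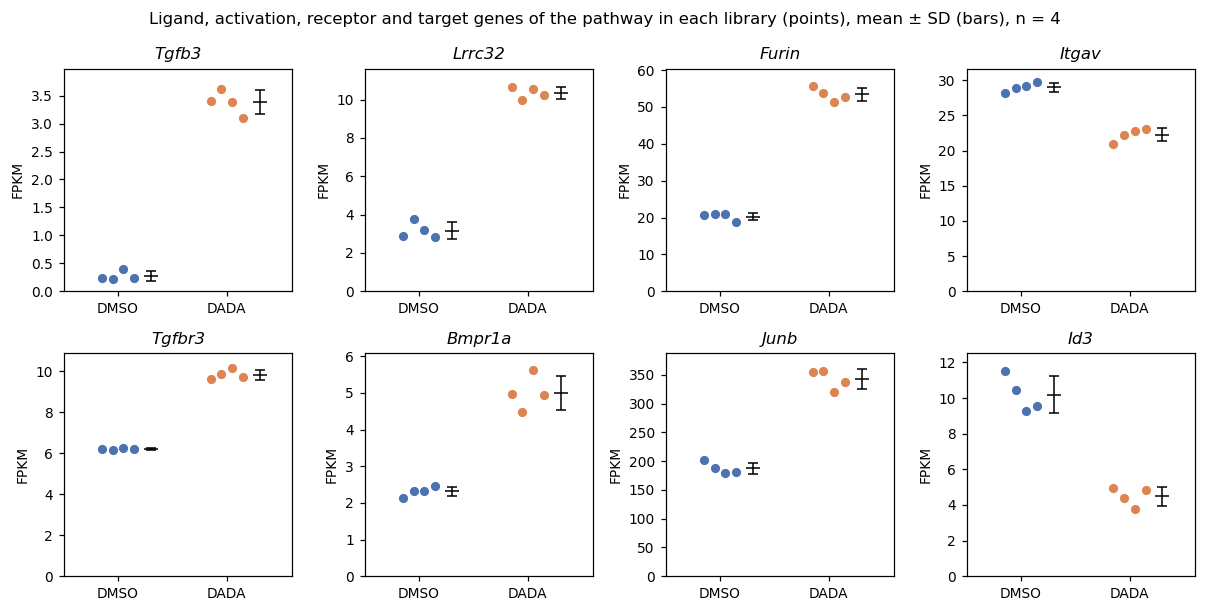
FPKM (y axis, from 0) of 8 further genes of the pathway in each DMSO and DADA library, 1 point per library, with mean and SD beside them (n = 4). *Itgav* and *Id3* are lower and the other 6 genes are higher in every DADA library, *Tgfb3* from below 0.5 FPKM in each DMSO library.

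Of 12 other receptors of the superfamily, 7 passed the filter. Without *Acvrl1*, 4 of 6 were higher and 0 lower, with a median log2 fold change of 0.32, and with it 5 of 7 were higher and the median was 0.35. Both counts keep *Bmpr2*, called higher, at 0.938 to 1.036 FPKM with DMSO and 1.36 to 1.51 with DADA. They also keep *Acvr1*, which was not called. Neither gene would have passed the filter without the DADA libraries. Among all genes tested, the shares were 30.9% higher and 35.3% lower. Without genes at 1 FPKM in a single group only, they were 29.8% and 35.7%. *Acvrl1*, a type I receptor also known as ALK1, was listed at 0 in 3 DMSO libraries and at 0.0415 FPKM in the other, and at 1.57, 1.502, 1.19 and 1.53 FPKM with DADA (limma, adjusted p = 1.59e-07), so it entered the test through the DADA libraries alone. Its fitted log2 fold change was 1.27, and 3.82 with a pseudocount of 0.1. *Bmpr1a*, a type I receptor for bone morphogenetic proteins, rose from 2.31 ± 0.125 to 5.00 ± 0.465 FPKM (log2 fold change 0.86, limma, adjusted p = 1.18e-06). The coreceptor *Tgfbr3* (betaglycan), chosen after its values were seen, rose from 6.21 ± 0.0351 to 9.84 ± 0.240 FPKM (log2 fold change 0.59, limma, adjusted p = 2.10e-07). Of the 4 other SMADs only *Smad1* and *Smad5*, which serve bone morphogenetic proteins, passed the filter, and *Smad1* fell by 0.30 on the log2 scale (limma, adjusted p = 0.00228) while *Smad5*, chosen after its values were seen, had a log2 fold change of 0.01 (adjusted p = 0.865).

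Of 17 regulators of SMADs and receptors, 5 (29.4%) were higher and 8 (47.1%) lower, with a median of -0.08, where 30.9% and 35.3% of all genes tested were called. The ubiquitin ligases *Smurf1* and *Nedd4l*, which mark receptors and SMADs for degradation, rose by 0.32 and 0.21 on the log2 scale, although the groups of *Smurf1* overlapped and *Nedd4l* was not called under quantile normalization. *Uchl5*, a deubiquitinase, and *Pmepa1*, an inhibitor that is also a target of the pathway, fell by 0.46 and 0.36. Among 16 corepressors and DNA-binding partners of SMADs, 7 (43.8%) were higher and 6 (37.5%) lower. *Runx3*, a partner of SMADs and a regulator of CD8+ T cell fate, rose from 24.4 ± 0.977 to 52.0 ± 1.06 FPKM (log2 fold change 1.07, limma, adjusted p = 1.72e-09), and *Sap30*, a subunit of the SIN3 deacetylase complex, from 24.9 ± 1.00 to 45.3 ± 0.270 FPKM. *Sin3a*, the scaffold of that complex, and *Tgif2*, the paralog of *Tgif1*, fell by 0.23 and 0.19 on the log2 scale. Of the 13 genes of signalling that runs past the SMADs, 4 (30.8%) were higher, 5 (38.5%) lower and the median was -0.01, with *Tab1* and *Pard6a* up by 0.28 and 0.20, and *Map2k6* and *Map3k7*, which encodes the kinase TAK1, down by 0.70 and 0.35.

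Of 9 genes known to be raised by TGF-beta that passed the filter, 6 (66.7%) were higher and 2 (22.2%) lower, and the median was 0.30, beside 30.9% and 35.3% of all genes tested. *Junb*, an AP-1 subunit, rose from 187 ± 9.97 to 343 ± 17.1 FPKM (log2 fold change 0.87, limma, adjusted p = 7.76e-08), whereas *Id3*, an inhibitor of E proteins, fell from 10.2 ± 1.02 to 4.48 ± 0.532 FPKM (log2 fold change -1.03). *Pmepa1*, which is in this list too, was the other that fell. *Itgae*, the residency integrin CD103 and the best known target in CD8+ T cells, chosen after its values were seen, did not pass the filter, with at most 0.266 FPKM in any library. Of the genes that TGF-beta lowers in T cells, 11 passed the filter, among them *Il2*, which reached 1 FPKM with DADA only. Without it 8 of 10 were higher and 1 lower with a median of 0.71. All genes tested, without genes at 1 FPKM in a single group only, gave 29.8% higher and 35.7% lower. With *Il2*, 9 of 11 were higher and the median was 0.73. Both counts keep *Klf2*, chosen after its values were seen, at 0.682 to 1.025 FPKM with DMSO and 2.51 to 3.72 with DADA. *Gzma* (granzyme A) is kept as well, at 0.781 to 2.36 FPKM with DMSO and 10.7 to 11.7 with DADA. Neither gene would have passed the filter without the DADA libraries. *Prf1* (perforin) and *Gzma* had the largest rises, of 2.66 and 2.38 on the log2 scale, and *Eomes*, a T-box factor of effector cells, fell by 0.36. The low DMSO values of *Gzma* had a coefficient of variation of 52.75%. Many of these targets answer to other signals too.

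**Figure D5:**
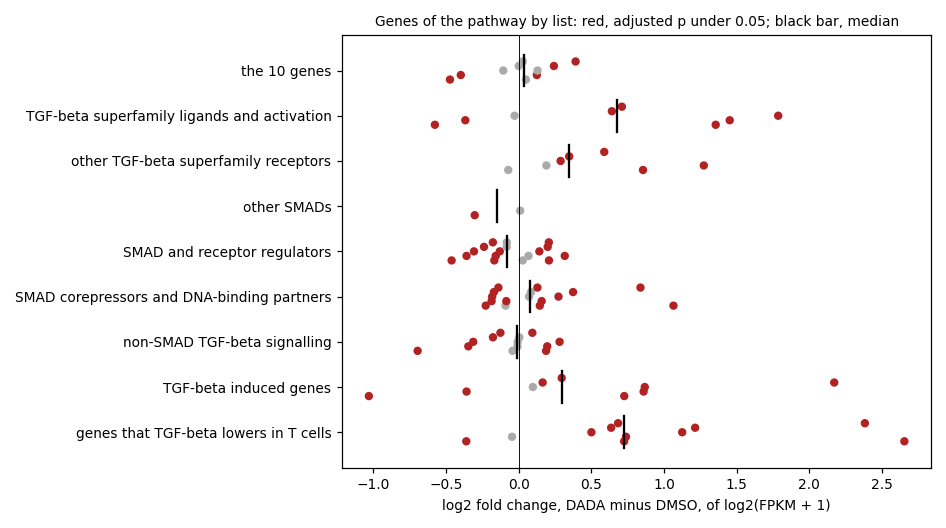
log2 fold change (x axis, DADA minus DMSO on the log2(FPKM + 1) scale) of the 10 core genes and of the tested genes of each of the 8 lists (rows), 1 point per gene, red where the adjusted p-value was under 0.05, with a black bar at the median. The 10 core genes keep between -0.47 and 0.39, while genes of the ligand, receptor and target lists reach further, up to 2.66.

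Over the 8 libraries, the tested genes whose log2(FPKM + 1) was most like that of *Tgfb1* were *Asap1*, *Fam72a* and *Ncf1*, with Pearson r of 0.9987, 0.9985 and 0.9973. All 3 were lower with DADA, with log2 fold changes of -0.23, -0.72 and -0.22. They were picked by correlation over both groups together, so this shared direction followed from the choice. In all, 22 of 10665 genes had an r above 0.99.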

How the data were processed

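Bulk RNA-seq of 4 DMSO and 4 DADA libraries was used, grouped by sample titles. The deposited files hold FPKM, with 1 value for each gene in a library. Per the labels, the submitters' processing notes list HISAT2 2.0.5, StringTie 1.3.3, SAMtools 0.1.18, Picard 1.41, FastQC 0.11.9 and CASAVA 1.8.2, and the builds GRCm39 and GRCh38, without saying which served what. Gene coordinates are therefore not given, and promoter windows are from RefSeq on GRCm38.p6. The labels and the methods name different library kits, and how strand was used in counting is not given in the sources used here.

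Values were analysed as log2(FPKM + 1), which understates changes of low genes, over 10666 genes with at least 1 FPKM in at least 4 of 8 libraries, with limma 3.58.1 in R 4.3.3 (lmFit, 1 term for DADA, eBayes with trend, Benjamini-Hochberg). In simulated libraries of 10666 genes made for the DADA and DMSO comparison, 173 of 200 changed genes were recovered with 1 false call. The simulation used normal noise and changed a far smaller share of genes than the 66.2% called in the data. Its smallest preset change was larger than those of *Smad4* and *Ski*, so it does not tell how well changes that small are recovered. Ratios within a library were tested by two-sided exact permutation over 70 assignments. The smallest p this allows is 0.0286, so after adjustment over 4 ratios a ratio that separated on its own could not be called. Depth was estimated from 4431 genes with 1 GENCODE M21 transcript, within a preset range, since the steps alone do not tell a depth from its multiple. Of the low values, 39.65% to 49.85% lay within 0.1 of a whole fragment, so no count test was run. Chance gives 20% at a depth fixed in advance. Here the depth was chosen to bring the values near whole fragments, so part of the excess over 20% is built in. Fragments per gene use the longest coding transcript and cover counting error only.

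The 10 genes, the pathway lists and the tests were chosen with earlier results of these data known. Named were the 10 genes, the 2 largest called changes in each direction of each list, and the 3 genes most correlated with the called member of largest change. Genes of the lists named outside this rule are marked, apart from *Ltbp3*, *Il2*, *Acvr1* and *Bmpr2*, which are named because they passed the filter through the DADA libraries. One gene that this rule names is not reported here. Alternatives were other pseudocounts, filters and scalings, eBayes without trend, the replicate number as a block, no assembled transcripts, and each library left out. A count of the lists without genes at 1 FPKM in one group only was added after the data were seen. Python 3.11.15, numpy 2.4.6, scipy 1.17.1, pandas 2.3.3 and matplotlib 3.10.9 were used.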

Additional observations from a re-analysis of the deposited data

Results flagged for a closer look

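Of 78 sets of 4 replicates, 6 had a single value standing off from its neighbours, judged by its gap as a ratio of the whole range. For independent sets chance gives about 3.9 (about 1 in 20). The ratios reuse values of single genes, so the sets are not independent and the 6 are not separate events. With DADA, *Tgfbr1* was at 4.04 FPKM in DADA 1 against 3.32 to 3.43 FPKM in the others (ratio 0.842), and *Smad3* at 6.33 FPKM in DADA 1 against 6.51 to 6.54 FPKM (ratio 0.865). The ratio of *Tgfbr2* to *Tgfbr1* was 2.19 in DADA 1 against 2.71 to 2.78 (ratio of gap to range 0.887). *Acvrl1* was at 1.19 FPKM in DADA 3 against 1.502 to 1.57 FPKM (ratio 0.8295), and with DMSO at 0.0415 FPKM in DMSO 1 with the others listed at 0 (ratio 1.00). In DMSO 3 *Tgfb3* reached 0.405 FPKM, where its companions had 0.220 to 0.232 FPKM (ratio 0.939), all far below the DADA libraries.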

How the results depend on the processing

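*Tgfb1*, *Smad4*, *Ski* and *Skil* kept their direction and their call in all 17 alternatives each, with log2 fold changes of -0.50 to -0.44, 0.10 to 0.16, 0.19 to 0.27 and 0.35 to 0.43. For *Smad2* the call was lost without the filter (log2 fold change -0.40, adjusted p = 0.0809), without the mean-variance trend (-0.40, adjusted p = 0.0537) and with the replicate block (-0.40, adjusted p = 0.0518), which left 1 of the 10 genes called lower. With 1 library left out, *Smad2* lay between -0.53 and -0.28 (adjusted p from 0.00566 to 0.107) and 1 to 2 of the 10 genes were called lower. Leaving out a library gave *Smad7* 0.0893 to 0.1646 (called only without DMSO 2, adjusted p = 0.0487) and *Tgfbr1* -0.0607 to 0.0508, and *Tgfbr1*, whose change is near 0, changed sign to -0.11 and *Smad3* to -0.0244 under quantile normalization, both uncalled. The cause was not tested. A filter at a mean of 5 FPKM left no value for *Tgfbr1*, *Smad7*, *Acvrl1*, *Bmpr1a*, *Inhba*, *Map2k6*, *Nedd4l*, *Pmepa1*, *Smad1* and *Tgfb3*. Of 25 genes picked from the lists by the rule, 24 kept their call and sign in the alternatives that gave them a value, and *Nedd4l* lost its call under quantile normalization (0.10, adjusted p = 0.205). The count over all genes lay between 5741 and 7868. The replicate numbers share no stated origin and the libraries of one number did not deviate together (correlations -0.12 to 0.095), so the block is not a pairing. It called 6995 genes, against 7064 without it. The 4 ratios stayed uncalled in every alternative, where the block, with 4 pairs, could not reach p under 0.05. In the main test too, a ratio that separated on its own could not be called after adjustment over 4 ratios. The lack of a call thus says little about any single ratio. Weighting FPKM by the length of the longest coding transcript moved the shares with DMSO and DADA to 21.2% and 20.7% for *Ski*, 53.8% and 58.2% for *Skil*, 25.0% and 21.0% for *Tgif1*, 59.5% and 50.6% for *Smad2*, 24.0% and 29.8% for *Smad4*, and 4.92% and 6.20% for *Smad7*. Depth limits the lowest genes, the counting error of *Smad7* reaching 7.82%.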
